A study of Mus musculus with 17 samples.

Results

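The Cyp4 genes encode cytochrome P450 enzymes of the endoplasmic reticulum that add a hydroxyl group at or near the far (omega) end of fatty acids. In kidney they are found mainly in the proximal tubule, where they feed omega-oxidation of fatty acids and turn arachidonic acid into 20-HETE, a lipid that acts on vessel tone and salt transport. In mice Cyp4a10 and Cyp4a14 are known targets of the fatty acid receptor PPARα, Cyp4a12a is known to be induced by androgens and to be the main 20-HETE synthase, and Cyp4a14 is known to be more abundant in females. The genes examined were 9 members of the family, taken by symbol from the 55487 gene identifiers of the count table: Cyp4a10, Cyp4a14, Cyp4a12a, Cyp4a12b, Cyp4a31, Cyp4a32, Cyp4b1, Cyp4f14 and Cyp4v3. All 9 had a row in the table. The list was chosen by the measured difference between the groups, which was known beforehand, so that difference is described here without a test, and nothing is inferred from it.

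Poly(A) RNA of kidney tissue from 17 male mice aged 16 weeks was read at its 3′ ends, with 1 library per animal. All belonged to the strain BKS.Cg-Dock7m +/+ Leprdb/J. The 8 db/m animals, given as HE/HE, are lean carriers of the Leprdb mutation. The 9 db/db animals, given as WT/HO, lack working leptin receptor signalling through the same mutation on both copies and are a model of obesity with diabetes. Groups were taken from the sample titles, which match the stated numbers of animals. The genotype field reads the other way in all 17 samples, and every direction below would be reversed under it. All db/db libraries carry higher library numbers than the db/m libraries, so an effect of library order and the genotype cannot be told apart.

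Libraries held 3256427 to 7627747 gene counts. The tissue label was checked against 16 proximal tubule markers, whose summed level ran from 11778 to 15504 CPM (counts scaled to a common library size with TMM factors) in db/m and from 11409 to 19510 CPM in db/db. The summed level of 9 hepatocyte markers was 37.2 to 72.8 CPM among db/m animals and 43.6 to 103 CPM among db/db animals, with 1 of 3 tested members higher in db/db and Tat at 0 in every library. Some markers of kidney cells differed between the groups. The shares to set beside the counts that follow are 3.91% higher and 3.49% lower among all 12131 tested genes. Of the 16 proximal tubule markers 1 was higher in db/db and 1 lower. Of 11 distal and collecting duct markers 7 were higher in db/db and 0 lower, with a median sum of 3474 CPM in db/m (2307 to 4094) against 4030 CPM in db/db (2331 to 4609). Of 9 glomerular, vascular and stromal markers 3 were higher and 0 lower, with medians of 444 CPM (407 to 556) and 532 CPM (483 to 564). Of 8 immune cell markers 4 were tested, with 2 lower and 0 higher, and the medians were 101 CPM (62.6 to 353) and 40.9 CPM (29.3 to 96.5), with Cd79a at 0 in every library. The part of these markers in the differences given below was not tested. The 6 adipocyte markers summed to 866 CPM in db/m replicate 8 and to 388 CPM in db/db replicate 9, against 13.3 to 182 CPM in the other libraries. The 6 adrenal cortex markers summed to at most 5.28 CPM. The first principal component held 32.8% of the variance, and its scores ran from -44.3 (db/m replicate 8) to 79.2 (db/db replicate 8).

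Of the members, 7 lie together on chromosome 4, the chromosome that also holds Lepr. In the GENCODE M21 annotation their order is Cyp4a12a, Cyp4a12b, Cyp4a14, Cyp4a10, Cyp4a31, Cyp4a32 and Cyp4b1, with Cyp4a14 and Cyp4b1 on the opposite strand to the other 5. Cyp4v3 is on chromosome 8 and Cyp4f14 on chromosome 17. The copies are close: over the coding sequence Cyp4a12a and Cyp4a12b were 98.49% identical, Cyp4a10 and Cyp4a31 96.59%, and Cyp4a10 and Cyp4a32 97.18%. Cyp4a14 was 75.56% identical to Cyp4a10 and Cyp4b1 59.34%. The stretch of 60 coding bases around the heme-binding cysteine, the part of a P450 that holds the iron, shows which members are copies of each other. It is printed 5′ to 3′ from the M21 transcripts, with capitals where a base differs from Cyp4a10.

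Cyp4a10: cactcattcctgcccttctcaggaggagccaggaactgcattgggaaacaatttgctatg

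Cyp4a14: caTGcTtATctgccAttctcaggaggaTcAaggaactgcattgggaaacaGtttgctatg

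Cyp4a12a: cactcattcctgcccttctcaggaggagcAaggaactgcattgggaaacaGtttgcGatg

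Cyp4b1: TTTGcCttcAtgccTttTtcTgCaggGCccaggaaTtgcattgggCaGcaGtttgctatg

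Cyp4a31 and Cyp4a32 had 0 differences from Cyp4a10 in this stretch, and Cyp4a12b had 0 differences from Cyp4a12a. Cyp4a12a differed from Cyp4a10 at 3 of the 60 bases, Cyp4a14 at 9 and Cyp4b1 at 16.

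As a 3′ tag reads the end of a transcript, the last 500 bases decide whether 2 copies can be told apart. Of 426 windows of 75 bases in that end, 139 (32.63%) of Cyp4a12a also occurred, letter for letter, in Cyp4a12b. Cyp4a10 and Cyp4a31 shared 2 such windows (0.4695%), and Cyp4a14, Cyp4b1, Cyp4f14 and Cyp4v3 shared 0 with any other annotated gene. With windows of 50 bases the shared part was 37.03% for Cyp4a12a and Cyp4a12b, 5.987% for Cyp4a10 and Cyp4a31, and 0% for Cyp4a14. Cyp4a32 stands apart in the annotation: its transcript has 0 bases after the coding sequence, where Cyp4a31 has 911, and 55.16% of its 75-base windows occur in Cyp4a10 or Cyp4a31. The levels of Cyp4a12a and Cyp4a12b, and of Cyp4a32, are therefore uncertain in how shared reads were divided or left out. For Cyp4a32 the annotated end is coding sequence, unlike the ends of the other copies. Tags from an end beyond the annotation would not be counted for it. The read length is not given in the sources used here.

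Of the 9 members, 7 had enough counts to be fitted among the 12131 genes tested, and 5 of these 7 passed the threshold used for the whole table (an adjusted p under 0.05 by the quasi-likelihood test of edgeR), 3 higher and 2 lower in db/db. Over all tested genes 7.39% passed it, 3.91% higher and 3.49% lower. Since the list was drawn up with this contrast known, nothing is read from that count. For 2 of the 7 all libraries of one group lay beyond all of the other, against 1.78% of all tested genes. In whole tissue, fewer cells of a type and less RNA per cell cannot be told apart.

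Cyp4a14 was the member with the largest difference. In db/m its level was 4.21 CPM in the lowest library, 9.48 at the median and 57.3 in the highest, and in db/db 232, 438 and 589 CPM. Every db/db library lay above every db/m library. The log2 fold change (db/db minus db/m) was 4.49 (SE 0.44, 95% interval 3.57 to 5.40), a 22.4-fold higher level, from 18.1 ± 18.9 CPM (SD, n = 8) to 405 ± 114 CPM (n = 9). The control spread came from a pair of libraries: db/m replicates 7 and 8 stood at 37.6 and 57.3 CPM, and the other 6 at 4.21 to 10.5 CPM. Replicate 8 was also the library with 866 CPM of adipocyte markers and 353 CPM of immune markers, whereas replicate 7 had 25.9 and 62.6 CPM. Their part in the Cyp4a14 level was not tested. The log2 fold change was 5.05 without db/m replicate 8.

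Cyp4a10, the other PPARα target of the cluster, showed a smaller difference from a higher control level. It ran from 119 CPM through a median of 146 to 249 CPM in db/m, and from 210 through 398 to 818 CPM in db/db. All db/db libraries except replicate 1 were above the highest control. The groups differed by 1.37 in log2 (SE 0.23, 95% interval 0.88 to 1.85), with means of 173 ± 57.1 and 447 ± 184 CPM.

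Cyp4a31, a near copy of Cyp4a10, had the highest mean and median of the members in db/db, although Cyp4a14 was higher in replicates 2, 3 and 4 and Cyp4b1 in replicate 1. It stood at 233, 290 and 417 CPM (lowest, median, highest) in db/m and at 307, 469 and 989 CPM in db/db, so that the groups overlapped. Means were 309 ± 70.6 and 541 ± 200 CPM, with a log2 fold change of 0.81 (SE 0.19, 95% interval 0.41 to 1.20). The ratio of Cyp4a31 to Cyp4a10 counts was 1.24 ± 0.138 in db/db and 1.88 ± 0.435 in db/m. With Cyp4a10, Cyp4a31 and Cyp4a32 summed into 1 gene before the fit, the log2 fold change was 1.03 (SE 0.20).

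Cyp4a12a, the androgen-induced hydroxylase, was far lower in db/db. The db/m libraries held 310 CPM at the lowest, 506 at the median and 633 at the highest, and the db/db libraries 55.2, 82.9 and 170 CPM. Here too the groups did not overlap. Means were 502 ± 124 and 87.5 ± 35.6 CPM, a log2 fold change of -2.52 (SE 0.21, 95% interval -2.95 to -2.08), or a 5.73-fold higher level in db/m. The lowest controls were replicates 7 and 8, at 310 and 381 CPM, which were the highest for Cyp4a14.

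Its copy Cyp4a12b had overlapping levels in the groups. It stood at 9.48, 16.6 and 31.8 CPM in db/m and at 10.6, 16.8 and 40.8 CPM in db/db (means 17.2 ± 7.28 and 19.6 ± 8.80 CPM), a log2 fold change of 0.19 (SE 0.26, 95% interval -0.34 to 0.72). Counts of Cyp4a12a exceeded those of Cyp4a12b by 12 to 66.7 times in db/m and by 3.54 to 5.26 times in db/db. The ratio in every db/db library was below that in every db/m library. With both copies summed into 1 gene, the log2 fold change was -2.27 (SE 0.21).

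**Figure D1:**
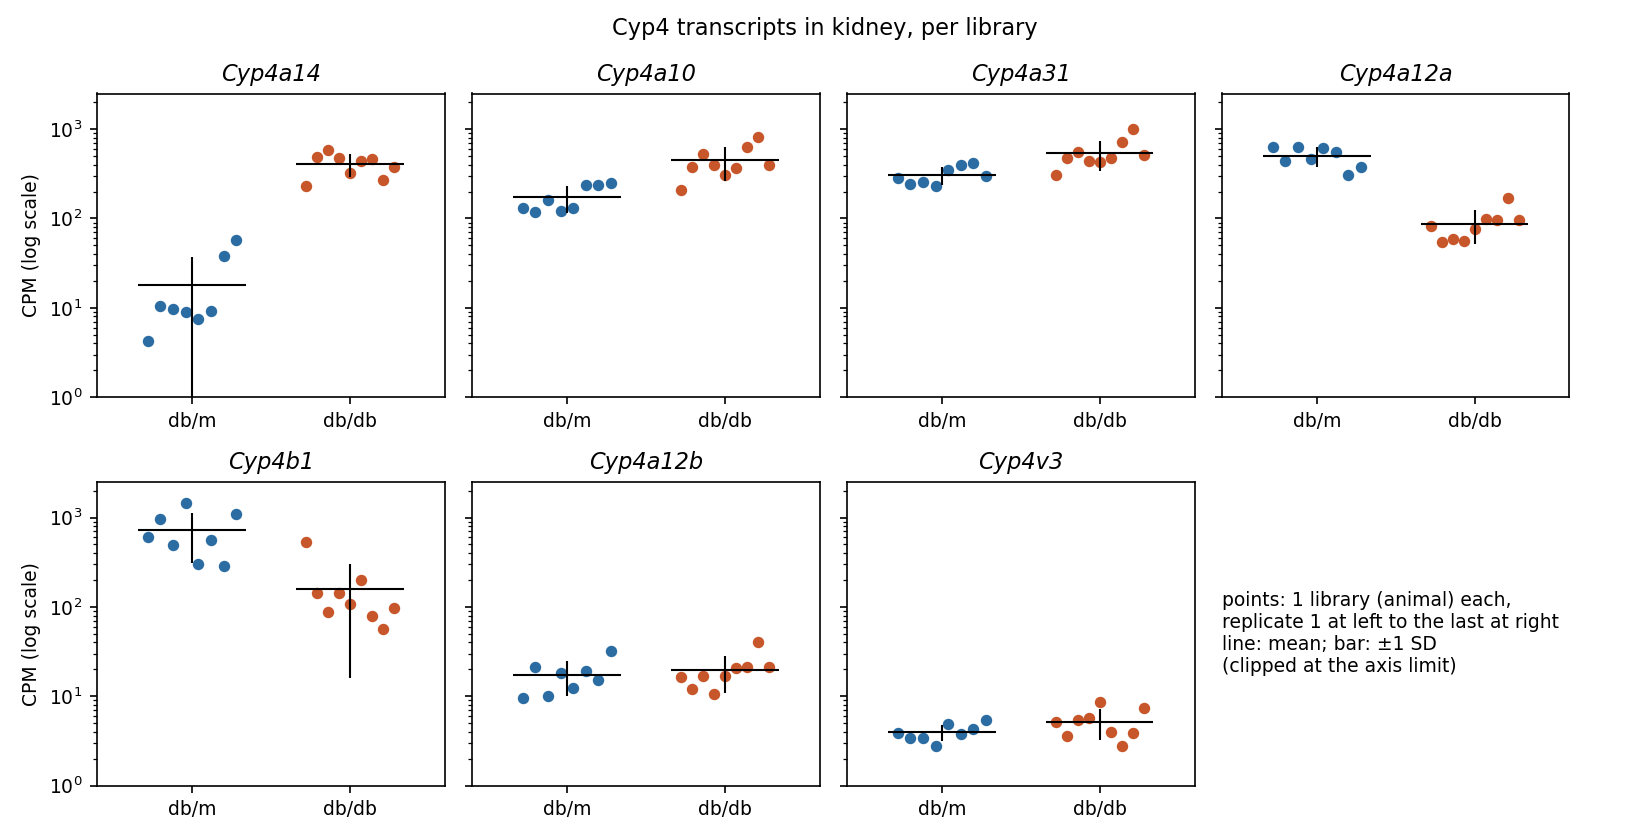
Level of the 7 fitted members in CPM (log scale), with 1 point per library, db/m in blue (n = 8) and db/db in orange (n = 9). A line marks the mean and a bar 1 SD to each side, cut at the lower limit of the axis. The groups are apart for Cyp4a14 and Cyp4a12a, with db/m replicates 7 and 8 highest for Cyp4a14, and they lie over each other for Cyp4a12b and Cyp4v3.

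Cyp4b1, which hydroxylates short and medium fatty acids and activates some plant toxins, was lower in db/db but varied widely inside each group. It ran from 285 CPM through 578 to 1437 CPM in db/m, and from 56.5 through 108 to 526 CPM in db/db. In db/db, replicate 1 stood at 526 CPM and the other 8 libraries at 56.5 to 200 CPM. Means were 718 ± 411 and 160 ± 144 CPM, with a log2 fold change of -2.17 (SE 0.41, 95% interval -3.01 to -1.32), and -2.63 without db/db replicate 1.

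Cyp4v3, the mouse counterpart of the human gene mutated in Bietti crystalline dystrophy of the retina, was low: 2.78, 3.80 and 5.36 CPM in db/m and 2.79, 5.14 and 8.70 CPM in db/db. Its log2 fold change was 0.40 (SE 0.23, 95% interval -0.07 to 0.87), and the groups overlapped. Cyp4f14, a hydroxylase of leukotriene B4, was too low to fit, with 18 counts over the db/m and 22 over the db/db libraries and at most 1.24 CPM in any. Cyp4a32 had 5 counts in db/m, 4 of them in replicate 2, and 0 in db/db. A level of 3 counts, taken as the limit that a count of 0 allows, corresponds to 0.380 to 0.929 CPM depending on the library. That limit covers counting error only, and not tags that may have been missed beyond the annotated end of Cyp4a32.

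Added together, the 9 members had overlapping summed levels in the groups, with a different make-up. The summed level was 1743 ± 333 CPM among controls (1304 to 2278) and 1667 ± 338 CPM in db/db (1265 to 2351). A 3′ tag count does not grow with transcript length, so shares of tags can be set side by side without a length term. Cyp4b1 and Cyp4a12a made up 38.8% ± 15.6 and 29.8% ± 9.75 of the Cyp4 tags in db/m, and 10.6% ± 10.8 and 5.21% ± 1.44 in db/db. Cyp4a31, Cyp4a10 and Cyp4a14 went the other way, with 18.7% ± 7.12, 10.3% ± 4.07 and 1.06% ± 1.07 in db/m and 31.8% ± 5.52, 26.0% ± 5.57 and 24.9% ± 6.99 in db/db. For every tag of Cyp4a14, db/m libraries held 6.65 to 150 tags of Cyp4a12a (median 55.2) whereas for every tag of Cyp4a12a the db/db libraries held 1.596 to 9.97 tags of Cyp4a14 (median 4.47).

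**Figure D2:**
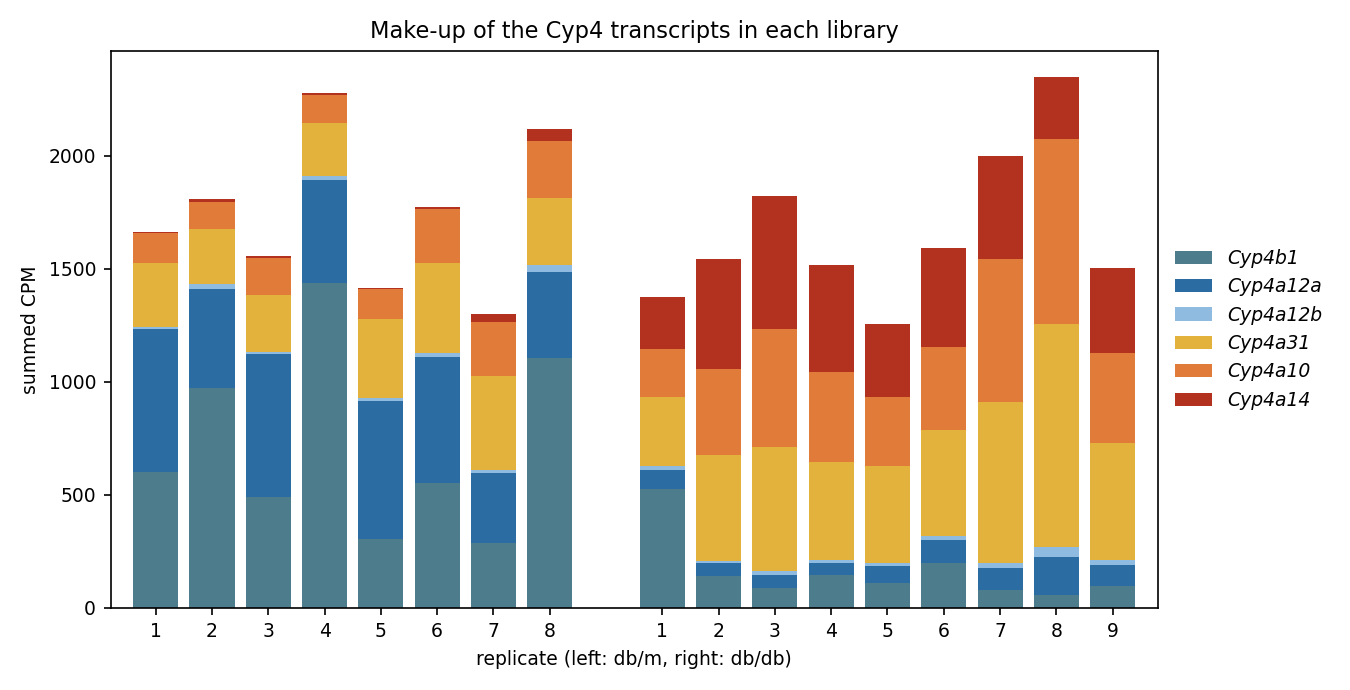
Summed CPM of the 6 most abundant Cyp4 members in each library, stacked by gene, with the 8 db/m libraries at left and the 9 db/db libraries at right. With the 3 lowest members added, the sums range over 1304 to 2278 CPM and 1265 to 2351 CPM, and the blue part (Cyp4b1, Cyp4a12a, Cyp4a12b) gives way to the yellow to red part (Cyp4a31, Cyp4a10, Cyp4a14) in db/db.

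How members varied between animals of the same group does not depend on the difference between groups and could be tested. For this, 5 relations were examined in each group on log2 CPM, with two-sided exact permutation p-values adjusted over the 10. The tightest was between the copies Cyp4a12a and Cyp4a12b in db/db (r = 0.957, exact permutation p = 0.000168, adjusted p = 0.00168; rho = 0.883, exact permutation p = 0.00308; n = 9). Without replicates 2 and 8, the libraries farthest from the median of Cyp4a12a, r was 0.864 (exact permutation p = 0.00536). In db/m the same copies gave r = -0.632 (exact permutation p = 0.0948, adjusted p = 0.135; rho = -0.714, exact permutation p = 0.0576; n = 8), and -0.871 (exact permutation p = 0.0333) without replicates 7 and 8. Leaving out replicate 7 alone brought it to -0.930 (exact permutation test, adjusted p = 0.0159). Whether this relation differs between the groups was not tested. The 2 copies share 32.63% of the 75-base windows at their ends, so reads may have been divided between them or left uncounted. The part of this in r was not tested.

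Cyp4a14 and Cyp4a12a went in opposite directions among the control animals (r = -0.835, exact permutation p = 0.00833, adjusted p = 0.0417; rho = -0.714, exact permutation p = 0.0576; n = 8). That relation rested on replicates 7 and 8: without them r was -0.554 (exact permutation p = 0.249). Its adjusted p was over the threshold, at 0.0556 to 0.122 by the exact permutation test, without replicate 1, 2, 5, 6 or 8. In db/db the value was -0.588 (exact permutation p = 0.0936, adjusted p = 0.135; rho = -0.583, exact permutation p = 0.108; n = 9), and -0.495 (exact permutation p = 0.263) without replicates 1 and 8.

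Cyp4a14 with Cyp4a10 gave r = 0.737 in db/m (exact permutation p = 0.0343, adjusted p = 0.114; rho = 0.476, exact permutation p = 0.243; n = 8), and 0.203 (exact permutation p = 0.660) without replicates 7 and 8. In db/db it was 0.293 (exact permutation p = 0.445, adjusted p = 0.557; rho = 0.283, exact permutation p = 0.463; n = 9). That value hung on single libraries: it was 0.833 (exact permutation test, adjusted p = 0.0387) without replicate 8 and -0.203 without replicate 1. Without both it was 0.611 (exact permutation p = 0.139).

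Cyp4a14 with the mean z-score of 34 PPARα target genes gave r = 0.671 in db/m (exact permutation p = 0.0694, adjusted p = 0.135; rho = 0.643, exact permutation p = 0.0962; n = 8). Among the db/db animals it was 0.0935 (exact permutation p = 0.814, adjusted p = 0.876; rho = 0.333, exact permutation p = 0.385; n = 9). Without the 2 farthest libraries these were 0.446 (exact permutation p = 0.425) and 0.580 (p = 0.162 by the same test). Cyp4a12a with the mean z-score of 10 genes known to be higher in male mouse kidney gave r = 0.631 in db/m (exact permutation p = 0.0945, adjusted p = 0.135; rho = 0.524, exact permutation p = 0.197; n = 8). Among the db/db animals it was 0.0614 (exact permutation p = 0.876, adjusted p = 0.876; rho = 0.10, exact permutation p = 0.810; n = 9). Without the 2 farthest libraries they were -0.347 (exact permutation p = 0.553) and 0.583 (p = 0.166 by the same test). None of these 4 values passed adjustment. The db/m value with the male-biased genes reached 0.845 (exact permutation test, adjusted p = 0.0496) without replicate 4.

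**Figure D3:**
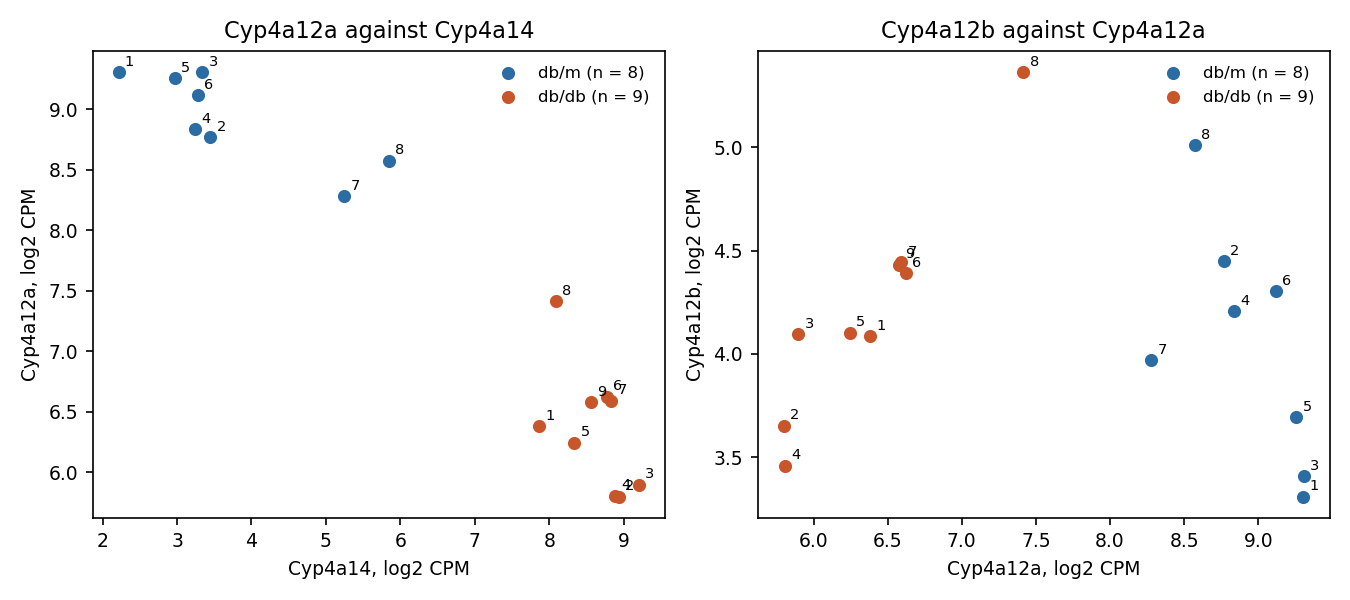
Log2 CPM of Cyp4a12a against Cyp4a14 (left) and of Cyp4a12b against Cyp4a12a (right), with 1 point per library labelled by its replicate number, db/m in blue and db/db in orange. At left db/m replicates 7 and 8 stand apart from the other 6 controls, and at right the points rise together in db/db (r = 0.957) and not in db/m (r = -0.632).

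The wide spread of Cyp4b1 went with the first principal component of all tested genes, a link looked at after the values were seen. The members are themselves among the genes that define the component. The p-values below do not allow for that or for the late choice of the link. Over 12 relations of 6 members in 2 groups, Cyp4b1 gave r = -0.968 among the controls (exact permutation p = 0.000744, adjusted p = 0.00446; rho = -0.881, exact permutation p = 0.00724; n = 8) and -0.898 among the db/db animals (exact permutation p = 0.00191, adjusted p = 0.00572; rho = -0.933, exact permutation p = 0.000750; n = 9). The libraries lowest on the component, db/m replicates 2, 4 and 8 and db/db replicate 1, held the highest Cyp4b1 levels of their groups, and they had the lowest sums of distal and collecting duct markers, at 2337, 2307, 2592 and 2331 CPM against 3379 to 4609 CPM in the other libraries. The part of this difference in marker levels was not tested. Without the 2 libraries farthest out on the component, these were -0.952 (exact permutation p = 0.0125) and -0.866 (p = 0.0113 by the same test). Cyp4a31 and Cyp4a10 went the opposite way in db/db, with r = 0.959 (exact permutation p = 0.000606, adjusted p = 0.00446; rho = 0.733, adjusted p = 0.0747; n = 9) and 0.915 (exact permutation p = 0.00125, adjusted p = 0.00499; rho = 0.80, adjusted p = 0.0553; n = 9). Without db/db replicates 1 and 8 they were 0.801 (exact permutation p = 0.0452) and 0.689 (p = 0.0865 by the same test). The other 8 relations did not pass adjustment, with r of -0.01 for Cyp4a14 in db/db (exact permutation p = 0.980, adjusted p = 0.980).

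With the score on that component as a term in the edgeR fit, added after the data were seen, the log2 fold change was -1.55 (SE 0.17) for Cyp4b1, 0.44 (SE 0.10) for Cyp4a31, 0.99 (SE 0.20) for Cyp4a10, -2.76 (SE 0.19) for Cyp4a12a and 4.66 (SE 0.43) for Cyp4a14. The value for Cyp4a31 was 0.44 in this fit against 0.81 without the term. The component was computed over both groups together, with scores of -44.3 to 21.2 in db/m and -40.6 to 79.2 in db/db. The term can therefore take up part of the difference between the groups. At db/db replicate 1, which had a component score of -40.6, Cyp4b1 was at 526 CPM, and at db/m replicate 4, with a score of -41.9, it was at 1437 CPM.

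**Figure D4:**
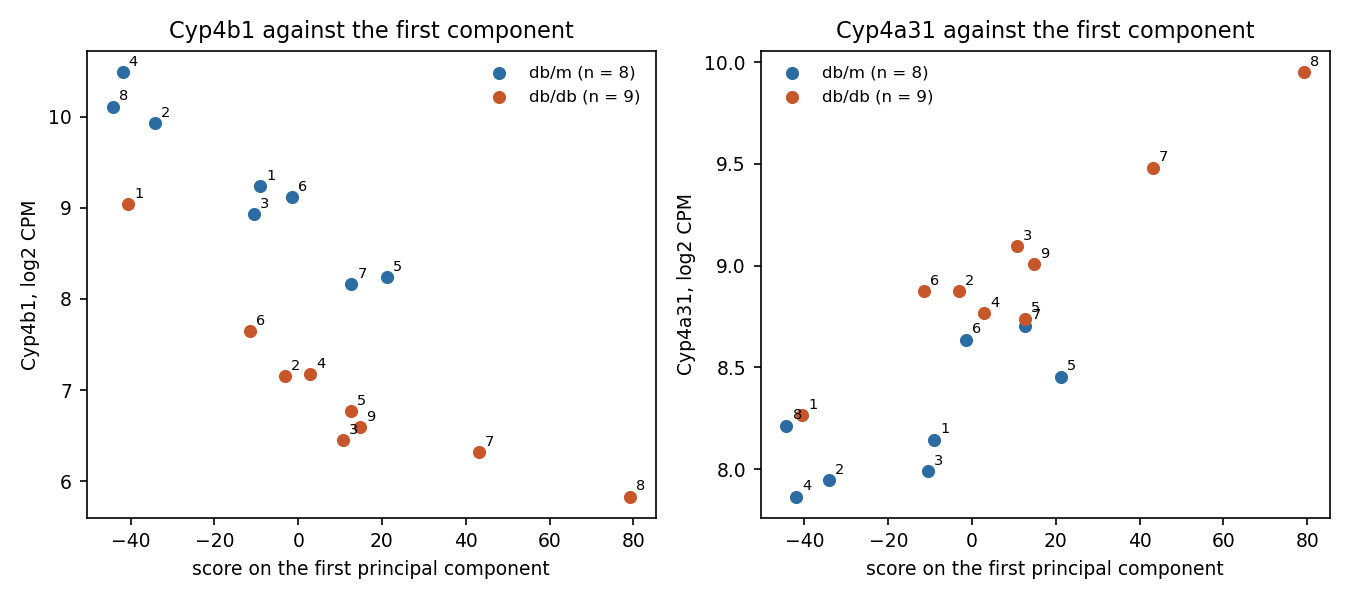
Log2 CPM of Cyp4b1 (left) and Cyp4a31 (right) against the score of each library on the first principal component, with points labelled by replicate number, db/m in blue and db/db in orange. Cyp4b1 falls along the component in both groups (r = -0.968 and -0.898), with db/db below db/m at like scores, and Cyp4a31 rises along it.

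Other genes shared these patterns once each group's mean was subtracted, over 17 libraries. They are given as a description, since they are the highest of all tested genes whose log2 CPM averaged at least 2. The genes nearest to Cyp4b1 were Amacr (r = 0.983), a racemase of branched-chain fatty acids, the succinate dehydrogenase subunit Sdhc (0.979), Wdr5 (0.973), Hibadh (0.973), an enzyme of valine breakdown, and Cideb (0.972), a lipid droplet protein. Amacr stood at 35.0 ± 34.8 CPM in control kidneys and 11.7 ± 16.7 CPM in db/db (log2 fold change -1.57, SE 0.60, edgeR adjusted p = 0.128). Sdhc stood at 114 ± 67.5 CPM in control kidneys and 101 ± 74.8 CPM in db/db, with overlapping groups (log2 fold change -0.18, SE 0.38, edgeR adjusted p = 0.835). The log2 fold changes of Wdr5, Hibadh and Cideb were -0.16 (SE 0.32), -0.74 (SE 0.46) and -0.52 (SE 0.31). None of these genes passed the threshold. Nearest to Cyp4a14 were Fanca (0.826), Cep70 (0.807), Gata3 (0.785) and S100a13 (0.757). Nearest to Cyp4a12a were Mlec (0.906), Cul7 (0.867), Rpl36al (0.856), Psmd7 (0.816) and Snx32 (0.815). Among the members themselves, Cyp4a31 was near to Cyp4a10 (0.872) and opposite to Cyp4b1 (-0.803).

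The wider pathways of the family were read from gene lists. Like the members, the lists were chosen with earlier results of these data known. Their counts are therefore a description, and nothing is inferred from them. Past the same threshold, 3.91% of all 12131 tested genes rose and 3.49% fell, which are the shares to set beside each list. Of 38 PPARα targets other than Cyp4 genes, 34 were tested, of which 7 rose, 3 fell and 24 did not pass the test. Their median log2 fold change was 0.12, against 0.0033 over all tested genes. Among the higher was the mitochondrial thiolase Acaa2 (1.09, SE 0.13, adjusted p = 1.10e-05; 228 ± 31.7 to 486 ± 112 CPM). The fatty acid transporter Cd36 (-1.93, SE 0.20, adjusted p = 1.43e-06; 77.2 ± 10.2 to 20.1 ± 7.89 CPM) and malic enzyme Me1 (-1.28, SE 0.20, adjusted p = 0.000274) fell. Without db/m replicate 4, 4 of these genes rose in place of 7. Acot1, Acot2, Acot3, Fabp3 and Mgll, named after their values were seen, also rose.

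Among the partners of omega-oxidation, 4 of 10 tested genes fell and 1 rose (median -0.11). Cytochrome P450 reductase Por, which hands electrons to the P450s, fell slightly (-0.32, SE 0.09, adjusted p = 0.0433; from a mean of 295 to one of 237 CPM), as did cytochrome b5 Cyb5a (-0.69, SE 0.15, adjusted p = 0.00540). Alcohol dehydrogenase Adh1, which can carry an omega-hydroxylated fatty acid further, fell from 997 ± 166 to 445 ± 134 CPM (-1.16, SE 0.16, adjusted p = 4.98e-05), and the aldehyde dehydrogenase Aldh1a1 rose (0.86, SE 0.11, adjusted p = 2.36e-05). The fourth that fell, the aldehyde dehydrogenase Aldh3a2, was named after its values were seen (-0.69, SE 0.21, adjusted p = 0.0473). The count of falls was 2 or 3 in each of the 17 fits that left out 1 library. It was 2 on omission of replicate 1, 2 or 4 of db/m, or of replicate 2, 3, 4, 5, 6, 7 or 9 of db/db.

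In the peroxisomal breakdown of dicarboxylic acids, where omega-oxidation products are shortened, 3 of 17 tested genes fell and 1 rose (median 0.04). The coenzyme A hydrolase Nudt19 (-1.07, SE 0.18, adjusted p = 0.000349) and carnitine octanoyltransferase Crot (-0.70, SE 0.11, adjusted p = 0.000368) were among the lower. The thioesterase Acot3 was higher (1.24, SE 0.24, adjusted p = 0.00194; 17.6 ± 6.32 to 41.7 ± 15.5 CPM), though it has close copies among the Acot genes.

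Of 22 tested genes of arachidonic acid metabolism, the other use of Cyp4 enzymes, 3 fell and 2 rose (median 0.12). The lipoxygenase Alox15 fell most (-4.56, SE 0.28, adjusted p = 1.82e-09; 34.4 ± 10.3 to 1.44 ± 0.879 CPM). The part of the lower immune marker levels in this was not tested. In db/m replicate 8, which had the highest immune marker sum (353 CPM), Alox15 was at 23.6 CPM. Soluble epoxide hydrolase Ephx2, which breaks down epoxides of arachidonic acid, also fell (-0.50, SE 0.13, adjusted p = 0.0154). Leukotriene C4 synthase Ltc4s (1.78, SE 0.19, adjusted p = 2.78e-06) and carbonyl reductase Cbr1 (1.25, SE 0.14, adjusted p = 4.81e-06) rose. The third that fell was the epoxygenase Cyp2j5, named after its values were seen (-0.44, SE 0.13, adjusted p = 0.0399). Without db/m replicate 8, 4 genes of this list rose.

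Of the factors and hormone receptors tied to Cyp4 control, 1 of 23 tested rose and 4 fell (median -0.11). The prolactin receptor Prlr was higher (2.88, SE 0.25, adjusted p = 1.24e-07; 12.8 ± 5.57 to 94.4 ± 28.9 CPM). The growth hormone receptor Ghr (-0.76, SE 0.13, adjusted p = 0.000561; 290 ± 51.6 to 171 ± 36.0 CPM) and the oestrogen receptor Esr1 (-1.14, SE 0.24, adjusted p = 0.00411) were lower. The other 2 that fell, named after their values were seen, were the glucocorticoid receptor Nr3c1 (-0.51) and the corepressor Ncor1 (-0.30). Ppara, singled out in the same way, did not pass the test, at 169 ± 27.9 and 135 ± 58.6 CPM (-0.32, SE 0.21, adjusted p = 0.406).

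Genes known to differ between the sexes were looked at because Cyp4a12a and Cyp4a14 are such genes. All 10 genes of the male-biased list fell (median -2.06), with Kap from 24312 ± 4207 to 4071 ± 1244 CPM, the oxysterol hydroxylase Cyp7b1 from 105 ± 13.4 to 7.68 ± 6.28 CPM and the transporter Slc7a13 from 472 ± 86.8 to 90.0 ± 36.9 CPM. Of 4 tested genes listed as female-biased Prlr rose, while Slc22a19 (-2.26, SE 0.31, adjusted p = 3.97e-05) and Cyp2a4 (-2.10, SE 0.36, adjusted p = 0.000639) fell. All animals were male, so whether each listed gene, Cyp2a4 included, is female-biased in kidney was not checked here. In the fits that left out 1 library, 8 to 10 of the male-biased genes fell.

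Outside the 9 members, 3 further Cyp4 genes of 14 listed had enough counts to be tested, and 0 passed by the edgeR test, 0 with DESeq2 and 0 at an unadjusted p under 0.05 (edgeR). Cyp4f13 stood at 26.0 ± 4.99 CPM in control kidneys and 25.1 ± 6.30 CPM in db/db (-0.05, SE 0.15, adjusted p = 0.902). Cyp4f16 was at 2.05 ± 0.859 and 2.68 ± 0.682 CPM, and Cyp4f17 at 3.84 ± 1.26 and 3.55 ± 2.03 CPM. For all 3 the groups overlapped.

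**Figure D5:**
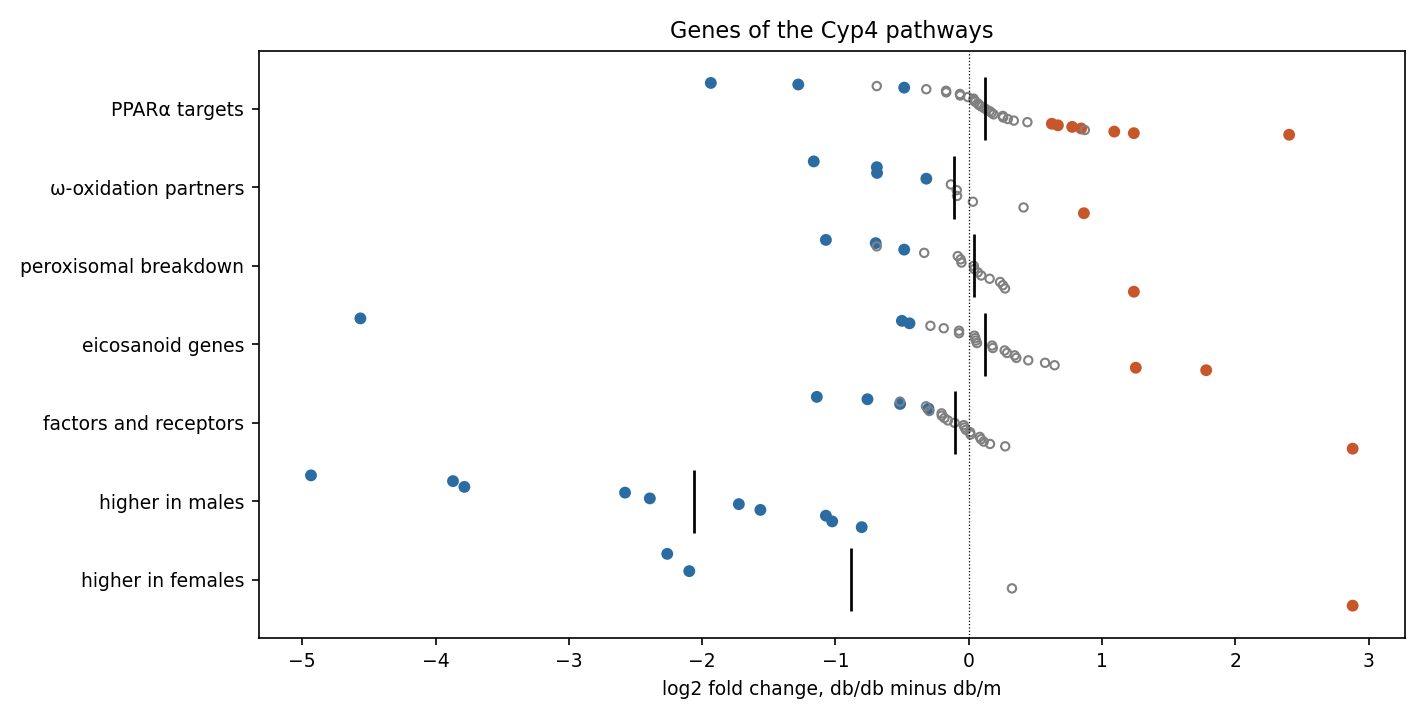
Log2 fold change (db/db minus db/m) of each tested gene in 7 lists, with filled points for genes past the threshold (orange higher, blue lower), open grey points for the others and a line at the list's median. All 10 male-biased genes lie left of 0, and the PPARα targets lie on both sides, with 7 higher and 3 lower.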

How the data were processed

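The authors deposited raw counts per mouse Ensembl gene for 17 libraries made with a QuantSeq 3′ forward kit, per the labels' protocols, which speak of cultured cells although the tissue field says kidney. STAR 2.7.3a, HTSeq 2.16.2 and the human build GRCh38 stand in the submitters' processing notes. Not given in the sources used here are the mouse build, the annotation, the strand setting and the handling of reads that map to several places, so no coordinates are printed. Lines for reads outside genes (19.3%) and ambiguous reads (0.533%) were left out. The line for reads aligned at several places held 0 in total, so such reads may have been removed before counting.

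Symbols were matched for 55141 of 55487 identifiers. No library was a copy of another (lowest chi-square per degree of freedom 3.83). Counts were fitted over all 17 libraries with edgeR 4.0.16 in R 4.3.3: filterByExpr (minimum count 10), TMM, quasi-likelihood F-test without the robust option and no covariate. P-values were adjusted by Benjamini-Hochberg over 12131 genes, with a threshold of 0.05, and the fit was tested on simulated data. The SE is the log2 fold change divided by the square root of F. Log2 CPM used a prior count of 2. DESeq2 1.42.0, plain library sizes, no count filter, summed copies, a replicate block, the first component as a term and leaving out libraries were tried.

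Named genes are the 9 members, the 4 list genes with the smallest p (3 for the factor and sex lists) and the 5 genes nearest to Cyp4a14, Cyp4a12a and Cyp4b1, and a few of these are not reported here. The members and lists were chosen with earlier results of these data known. Sequences were taken from GENCODE M21 transcripts. Promoters, held for 4 members, were not used here.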

Additional observations from a re-analysis of the deposited data

Results flagged for a closer look

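Of 68 sets of values checked (7 members and the named list genes, in each group, on log2 CPM), 3 held a library far from the rest of its group, where chance gives about 1 in 20. The omega-oxidation partner Cyb5a was at 182.2 CPM in db/db replicate 8, and the nearest library, replicate 2, was at 332.5 CPM. Cyp2a4 was at 36.36 CPM in db/m replicate 5 (nearest 90.17 CPM) and at 2.899 CPM in db/db replicate 8 (nearest 13.31 CPM). Replicate 8 of db/db was also the library farthest out on the first principal component and the highest in its group for Cyp4a10, Cyp4a31, Cyp4a12a and Cyp4a12b. No library of a Cyp4 member stood that far from its group.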

How the results depend on the processing

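Replicate numbers did not pair the samples: the deviations of same-numbered libraries correlated at -0.45 to 0.21, 2 of 8 pairs were over 0.1, and 0 of 8 db/m libraries were closest to their own number. With the replicate number as a block, in a fit that also left out db/db replicate 9, 194 genes were higher and 231 lower, against 474 and 423. The effects of the block and of the omitted library were not separated. With this block, 2 omega-oxidation partners, 1 arachidonic acid gene and 2 factors fell. With the first component as a term, 6 PPARα targets fell, and 2 peroxisomal genes rose and 5 fell. Without db/m replicate 8 and db/db replicate 8, 4 arachidonic acid genes rose. With plain library sizes, Cyp4a14 and Cyp4a12a in db/m gave r = -0.75 (exact permutation test, adjusted p = 0.0675). Of the other 164 values under other settings that kept all or most libraries, correlations stayed on their side of the threshold. Fold changes stayed within the spread between replicates. Counts of genes stayed within a set ratio of the main count, though some moved. With the first component as a term 706 genes were higher and 615 lower, and with DESeq2 621 and 534. Leaving out 1 library at a time, the number of falling omega-oxidation partners was 2 to 3, of rising PPARα targets 4 to 8 and of rising arachidonic acid genes 2 to 4. Over these same omissions, r of Cyp4a14 with Cyp4a12a in db/m ran from -0.873 to -0.774, and of Cyp4a12a with Cyp4a12b in db/m from -0.930 to -0.543. Cyp4a12a with the male-biased genes gave 0.303 to 0.845 in db/m and -0.0965 to 0.486 in db/db. In db/db Cyp4a14 gave -0.203 to 0.833 with Cyp4a10 and -0.299 to 0.698 with the PPARα targets. The causes were not tested. The 7 fitted members kept their direction without any 1 library, except Cyp4a12b (-0.02 to 0.37). Cyp4a32 and Cyp4f14 had too few counts to fit.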

Other observations

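The 2 controls that were highest for Cyp4a14 and lowest for Cyp4a12a were looked up, after these values were seen, in other genes named above. Kap, an androgen-driven kidney protein, was at 19180 and 17376 CPM, against 23135 to 29031 CPM in the other controls and at most 5560 CPM in db/db. Alox15 was at 18.8 and 23.6 CPM, below the 29.6 to 46.7 CPM of the others. Cyp7b1, also male-biased, was at 112 and 103 CPM, within the 90.2 to 125 CPM of the others. Cd36 was at 56.9 CPM in replicate 7, the lowest control, and at 82.0 CPM in replicate 8, within the range of the others. No test was made, since the libraries were singled out by a measured value.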
